A study of Mus musculus with 82 samples.

Results

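Mouse embryonic fibroblasts (MEFs) with intact AMP-activated protein kinase (AMPK), called WT, were exposed to the small-molecule AMPK activator 991 at 10 µM for 4 h and compared with WT cells that received the solvent DMSO. The comparison rests on 7 of the 82 arrays of the series, chosen by genotype and treatment and not by any measured value: the 3 WT arrays with 991 (technical replicates 2, 3 and 4) and the 4 WT arrays with vehicle (technical replicates 1 to 4). The authors left out technical replicate 1 of the 991 group as an outlier, per the labels, and it is not analysed here. The labels give C57BL/6 as the background, and the MEFs were grown with fetal calf serum. Each array is an Affymetrix mouse whole-genome array read as log2 intensity per probe set, and 18193 genes were tested. The other groups set beside this comparison are MEFs that lack AMPKα1 and AMPKα2 (dKO, 4 arrays with 991 at the same dose and 4 with vehicle), WT MEFs with AICAR at 2 mM (4 arrays) and WT primary hepatocytes with 991 at 3 µM or vehicle (20 arrays from 2 preparations), all for 4 h. The comparison asks which mRNAs a direct AMPK activator changes in these fibroblasts, and the dKO cells ask which of those changes need AMPK. The labels name technical replicates of MEFs and no separate embryos or cultures, so a p-value here measures the spread between arrays, which may be technical, and genotype cannot be told apart from the line of cells. In bulk RNA, fewer cells of a type and less RNA per cell cannot be told apart.

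AMPK is a kinase of 3 subunits that cells switch on when energy runs low. The compound 991 binds the kinase directly, whereas AICAR is a nucleoside that cells convert into an AMP analogue, which also acts on other enzymes that sense AMP. At the lysosome, folliculin works with Fnip1 or Fnip2 on the Rag GTPases. When that control is relieved, the transcription factors TFEB and TFE3 enter the nucleus and bind E-box motifs in genes of lysosomes and autophagy. Sterol synthesis is governed by a different factor, SREBP2, whose activity falls as membranes fill with cholesterol.

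The 7 arrays were alike in overall profile but not in the width of their values. Each correlated with the rest of its group at 0.9984 to 0.9992, and no pair was identical. Medians were 6.17 to 6.20 with 991 and 6.20 to 6.23 with vehicle. The interquartile range of all probe sets was 3.89, 3.81 and 3.73 in 991 replicates 2, 3 and 4, and 3.58, 3.74, 3.61 and 3.64 in vehicle replicates 1 to 4. Replicates 2 and 3 of 991 were wider than every vehicle array, and replicate 4 was narrower than vehicle replicate 2. The mean of 24 poly-A control probe sets, which match bacterial transcripts that can be added to a sample, was 7.97, 7.99 and 7.50 with 991 and 7.45, 7.72, 7.50 and 7.56 with vehicle, again with replicate 4 among the vehicle arrays. Over the 23 MEF arrays, width and poly-A level moved together (Pearson r = 0.729, given as a description, since arrays of a group share their treatment and may share their RNA). Hybridisation controls (18 probe sets) averaged 10.61 to 10.64 with 991 and 10.53 to 10.87 with vehicle. The 3′ minus 5′ difference of actin probe sets was 0.11 to 0.22 with 991 and 0.13 to 0.20 with vehicle.

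**Figure D1:**
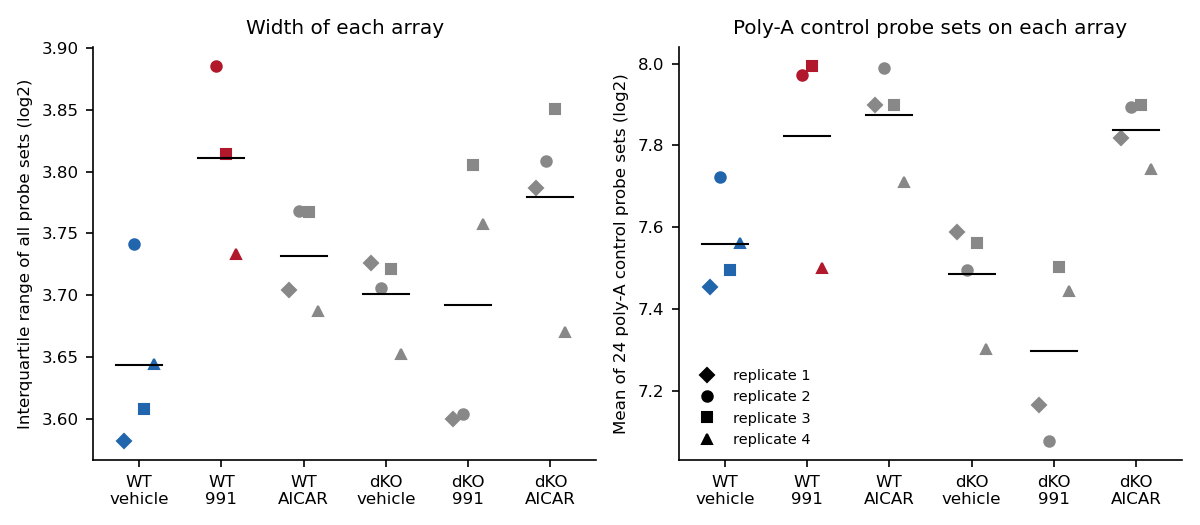
Left, the interquartile range of all probe sets on each MEF array (log2); right, the mean of 24 poly-A control probe sets (log2). Each point is an array, its shape gives the technical replicate number, bars are group means, and the axes do not start at 0. In both panels 991 replicates 2 and 3 lie above all 4 WT vehicle arrays and replicate 4 lies among them.

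With 991, 41 genes rose and 6 fell by at least 1.5-fold at an adjusted p under 0.05 (limma, Benjamini-Hochberg over 18193 genes), which are 0.225% and 0.033% of the genes tested. The rises were 0.60 to 1.09 on the log2 scale with a median of 0.68. They cover the folliculin complex and lysosome, sterol and lipid synthesis, stress and growth-arrest regulators, clock genes and interferon-induced genes. Among all genes the median change was -0.0002, and 14.0% were called higher and 5.65% lower with no fold limit (19.7% in either direction). These smaller calls followed the level of the gene: 2358 genes rose and 351 fell among those at or above the median level, against 197 and 676 below it. A list of well-expressed genes is therefore read against the 25.9% higher and 3.86% lower of that upper group as well as the 14.0% and 5.65% of all genes.

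The larger changes stood clear of the spread between arrays. In all 47 genes the 991 and vehicle arrays did not overlap, where 16.1% of all genes lay entirely higher and 9.94% entirely lower. The 47 were picked by their change on these same 7 arrays, which favours such a gap. The refits that follow reuse those arrays, so their counts are a description. All 47 were also called after quantile normalization within MEFs (7.01% of genes higher and 5.75% lower), with array width as a covariate (4.11% and 1.95%) and with the poly-A level as a covariate (6.62% and 1.82%), a setting chosen after seeing the data. Replicate 4 was the lowest 991 array in 35 of the 41 rises, against 57.9% of all genes called higher. With replicate 4 as the only 991 array, also chosen after seeing the data and with its spread taken from the other groups, 35 of the 41 rises and 5 of the 6 falls were called (2.01% and 0.445% of all genes), and all 47 kept their direction. Without replicate 4 the number of genes called at 1.5-fold was 75.

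Flcn, Fnip1 and Fnip2, the 3 genes of the folliculin complex, all rose. In every list of array values below, the 991 values are replicates 2, 3 and 4 and the vehicle values replicates 1 to 4, all in log2 intensity. Flcn, which encodes folliculin, read 10.09, 9.96 and 9.70 with 991 and 9.21, 9.28, 9.09 and 9.28 with vehicle. All 3 treated arrays lay above all 4 controls, and the rise was 1.63-fold (log2 change 0.71 ± 0.07, adjusted p = 2.59e-08). Fnip1, the partner that AMPK itself phosphorylates, read 9.84, 9.65 and 9.21 with 991 and 8.65, 8.82, 8.59 and 8.82 with vehicle. Its arrays did not overlap either, although replicate 4 sat much closer to the controls than the others, and the rise was 1.80-fold (0.85 ± 0.12, adjusted p = 1.69e-05, and 0.101 with replicate 4 alone). The second partner, Fnip2, read 9.15, 9.20 and 8.88 against 8.26, 8.42, 8.44 and 8.34, a 1.64-fold rise without overlap (0.71 ± 0.06, adjusted p = 1.64e-09).

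Of 16 measured genes of the folliculin complex, its lysosomal anchors and the MiT/TFE factors, 9 rose and 1 fell, with a median change of 0.13 (6 rose and 1 fell after quantile normalization, and 6 rose with the width covariate). The shares of all genes called higher were 14.0%, 7.01% and 4.11%, and 25.9% as deposited at or above the median level. The Rag GTPase Rragc rose by 0.33 ± 0.03 and Rragd, a known target of TFEB, by 0.31 ± 0.09. Ragulator subunits, which hold the Rags on the lysosome, rose less, by 0.18 ± 0.05 for Lamtor2, 0.16 ± 0.05 for Lamtor4 and 0.15 ± 0.03 for Lamtor3. None of the transcription factor genes was called higher: Tfeb fell by 0.19 ± 0.06, while Tfe3 (0.06 ± 0.05) and Mitf (0.02 ± 0.10) were not called. Of 18 genes of mTORC1 and its other lysosomal regulators 2 rose and none fell, namely Depdc5 (0.25 ± 0.09) and Tbc1d7 (0.24 ± 0.06), a share below the 14.0% of all genes, and after quantile normalization 1 rose and 2 fell.

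Lysosomal genes outside that complex rose in number. Neu1, a lysosomal sialidase, read 8.15, 8.0 and 7.98 with 991 and 7.07, 7.46, 7.11 and 7.35 with vehicle. The groups were apart by more than the range within either, and the rise was 1.74-fold (adjusted p = 4.11e-08). Pip4p1, which encodes a phosphatase of phosphoinositides on lysosomes, read 10.26, 10.22 and 10.17 and 9.54, 9.55, 9.57 and 9.46. Both groups were tight and far apart, with a rise of 1.62-fold (adjusted p = 1.01e-11). Ctns, the lysosomal cystine exporter, read 6.86, 6.75 and 6.29 against 5.95, 6.19, 5.88 and 6.07 (1.52-fold, adjusted p = 4.59e-05). Here replicate 4 lay just above the highest control, and with it alone the gene was not called (adjusted p = 0.246). Dpp7, a lysosomal dipeptidyl peptidase, read 9.10, 9.07 and 8.94 against 8.26, 8.56, 8.36 and 8.43 without overlap (1.55-fold, adjusted p = 2.15e-07).

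By list, 20 of 33 measured lysosomal hydrolases and cofactors rose and none fell (median 0.15), and 22 of 26 lysosomal membrane proteins and subunits of the V-ATPase proton pump rose and none fell (median 0.22). After quantile normalization the counts were 13 and 18, and with array width as a covariate 9 and 14. The shares of all genes called higher were 14.0% as deposited, 7.01% after quantile normalization and 4.11% with width. At or above the median level 25.9% rose as deposited, and 1046 of 9097 rose after quantile normalization. Next to Neu1, the largest rises within the hydrolase list, which does not hold Dpp7, were those of Manba (0.53 ± 0.11) and Naglu (0.40 ± 0.08), which degrade glycans, Hexa (0.35 ± 0.05) and Galc (0.35 ± 0.09), which degrade sphingolipids, and Ctsa (0.33 ± 0.05), the protective protein of sialidase. Among pump subunits Atp6v1b2 rose by 0.45 ± 0.04 and Atp6v0b by 0.41 ± 0.06, and among membrane proteins the cholesterol exporter Npc1 rose by 0.40 ± 0.09 and Ostm1, partner of a chloride exchanger, by 0.38 ± 0.04. The cathepsins rose less (Ctsd 0.15 ± 0.03, Ctsl 0.14 ± 0.03, Ctsb 0.10 ± 0.03), as did Lamp1 (0.08 ± 0.02).

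Autophagy genes rose in 18 of 38 measured and fell in none, with a median of 0.14 (13 after quantile normalization and 6 with the width covariate). The shares of all genes called higher were 14.0%, 7.01% and 4.11%. At or above the median level 25.9% rose as deposited with a median of 0.07, and 1046 of 9097 rose after quantile normalization. The receptors Sqstm1 (0.32 ± 0.03) and Nbr1 (0.32 ± 0.04), which carry cargo into autophagosomes, and the mitophagy receptor Bnip3 (0.30 ± 0.03) rose with small errors. The lipid kinase Pik3c3 rose by 0.33 ± 0.07, its partner Pik3r4 by 0.32 ± 0.09, and the receptor Calcoco1 by 0.32 ± 0.07. In dKO cells the change of Bnip3 was 0.22 (adjusted p = 6.44e-05), and the difference between genotypes was 0.08 ± 0.05 (adjusted p = 0.319).

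Promoter sequences from RefSeq (GRCm38.p6, the 250 bases before and 50 after each annotated start) were searched for the flanked E-box TCACGTGA, the core of the motif that TFEB and TFE3 bind. It reads the same on both strands and contains the plain E-box CACGTG, so the counts of both overlap. Of the 41 genes that rose at 1.5-fold 34 had a promoter in the table, and 5 of these (14.7%) held TCACGTGA, against 1.63% of 14452 genes tested and 0.974% of all 32851 windows. Crebrf held it 126 bases before its start, Dpp7 74, Pip4p1 55, Armcx1 4 and Tceal1 2 bases before. The plain E-box was in 10 of the 34 (29.4%, against 10.2% of genes tested), Fnip1 and Hsd17b7 among them, and no window of the 4 matched falls held either. The window of Flcn held neither. The stretches that follow show these letters in capitals in the strand of the gene, for the lysosomal genes and Crebrf that rose most and for the E-boxes of Fnip1 and the sterol gene Hsd17b7. They lie at chr17:26715504-26715603 (plus strand, Crebrf), chr14:50930850-50930949 (minus, Pip4p1), chr2:25356333-25356432 (minus, Dpp7), chr11:54438079-54438178 (plus, Fnip1) and chr1:169969269-169969368 (minus, Hsd17b7).
Crebrf: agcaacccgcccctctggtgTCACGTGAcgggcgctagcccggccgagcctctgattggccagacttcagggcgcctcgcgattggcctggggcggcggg
Pip4p1: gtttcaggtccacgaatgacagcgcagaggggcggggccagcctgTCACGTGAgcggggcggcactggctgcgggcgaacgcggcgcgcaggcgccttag
Dpp7: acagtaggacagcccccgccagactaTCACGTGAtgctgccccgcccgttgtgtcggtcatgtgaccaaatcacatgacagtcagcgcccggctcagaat
Fnip1: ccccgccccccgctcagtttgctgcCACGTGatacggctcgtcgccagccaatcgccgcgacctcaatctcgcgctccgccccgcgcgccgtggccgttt
Hsd17b7: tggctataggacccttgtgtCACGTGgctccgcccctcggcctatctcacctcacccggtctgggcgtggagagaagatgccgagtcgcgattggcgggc

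A match is a description of letters, not a site or a cause. Across all genes with a promoter in the table, 88 of 235 with TCACGTGA were called higher (37.4%) and 5 lower, against 14.2% higher of 14217 without. Genes with the motif were more often at or above the median level (192 of 235, against 7282 of 14217), and at that level the shares called higher were 43.8% and 25.6%. After quantile normalization they were 24.7% and 6.85% over all levels, and with array width as a covariate 15.7% and 4.02%. In dKO cells 2.98% and 2.05% were called higher with 991 over all levels, and 3.65% and 3.83% at or above the median level. In the lysosomal lists, 7 of 21 membrane and pump genes with a promoter held the motif, and 6 of those 7 rose: Pip4p1, Clcn7 (0.27 ± 0.05), Atp6v0d1 (0.26 ± 0.04), Mcoln1 (0.20 ± 0.05), Slc36a1 (0.20 ± 0.07) and Atp6v1a (0.14 ± 0.04), while Atp6v0e (0.07 ± 0.03) was not called. Among 29 hydrolases 3 held it, Ctsa, Gla (0.31 ± 0.06) and Ctsd, and all 3 rose.

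**Figure D2:**
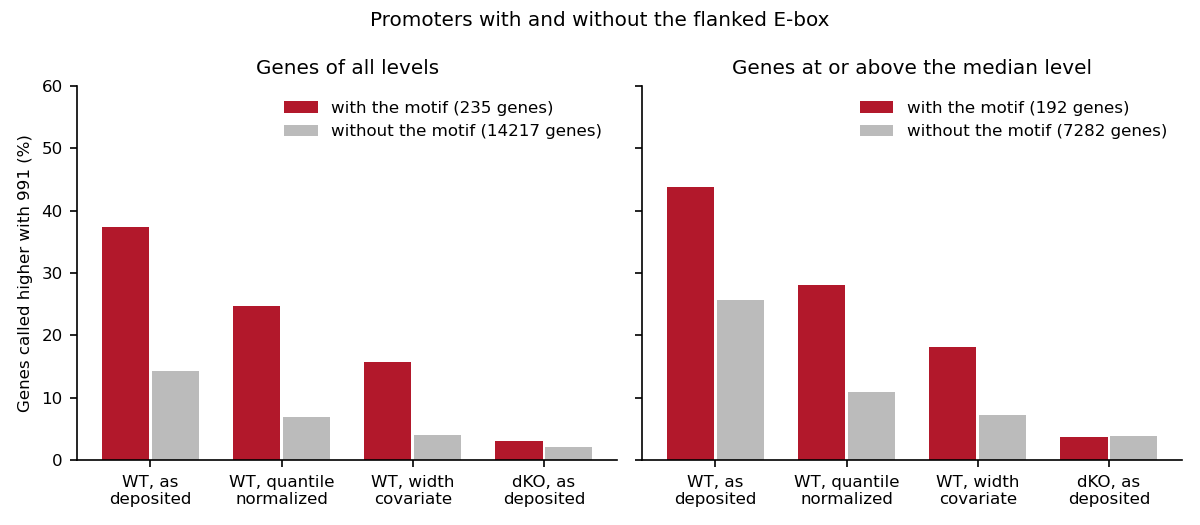
Share of genes called higher with 991 (%), for promoters that hold TCACGTGA (red) and those that do not (grey), over all levels (left) and at or above the median level (right). The bars are the WT fit as deposited, after quantile normalization and with array width as a covariate, and the dKO fit. The WT bars with the motif are the higher ones throughout (37.4% against 14.2% at the left). The dKO bars with and without it are 2.98% and 2.05% at the left, and 3.65% and 3.83% at the right.

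Sterol synthesis was the list with the highest median. Of 17 measured enzymes 16 rose and none fell (median 0.41), and 16 were called after quantile normalization, with the width covariate and with the poly-A covariate alike. Hsd17b7, which reduces a late sterol intermediate, read 10.05, 9.99 and 10.03 with 991 and 9.29, 9.33, 9.39 and 9.34 with vehicle. The arrays of each group lay close together, and the rise was 1.61-fold (0.69 ± 0.03, adjusted p = 9.46e-15), the lowest adjusted p among the 47. Hmgcs1, an early enzyme of the pathway, read 12.67, 12.68 and 12.65 against 12.07, 12.00, 12.11 and 11.99, again without overlap (1.54-fold, adjusted p = 1.64e-12). Lss, which closes the sterol rings, read 10.22, 10.32 and 10.22 against 9.55, 9.78, 9.57 and 9.65 (1.53-fold). Mvd, which makes isopentenyl diphosphate, read 9.45, 9.42 and 9.58 against 8.81, 9.03, 8.79 and 8.93 (1.51-fold), and in Mvd replicate 4 was the highest of the 991 arrays. Msmo1 (0.52 ± 0.05) and Fdft1 (0.50 ± 0.04) followed, and the smallest called rise was that of Fdps (0.19 ± 0.03).

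Regulators of sterol balance rose in 6 of 13 measured and fell in none (median 0.12), where 14.0% of all genes rose and 5.65% fell. Insig1, which retains SREBP in the endoplasmic reticulum and is itself its target, rose by 0.43 ± 0.06, and the sterol carrier Stard4 by 0.38 ± 0.04. Srebf2, which encodes SREBP2, rose by 0.15 ± 0.04 but was not called after quantile normalization (adjusted p = 0.375). Mylip, which encodes a ligase that degrades the LDL receptor, rose by 0.29 ± 0.05. Abca1, the exporter that loads cholesterol onto lipoproteins, read 7.65, 7.67 and 7.47 against 6.86, 7.13, 6.94 and 6.95 (1.54-fold, adjusted p = 5.95e-07). Of 7 measured genes of sterol efflux 1 other rose, Lpcat3 (0.16 ± 0.04). The sterol element TCACNCCAC (other strand GTGGNGTGA) was in 1 of 14 sterol enzyme promoters, that of Hmgcs1, against 1.46% of genes tested. Across all genes with a promoter in the table, 14.2% of 211 with this element were called higher, against 14.6% of 14241 without. At or above the median level the shares were 28.2% and 26.0%. The element of Hmgcs1 is shown in capitals 137 bases before the start, at chr13:119690194-119690293 on the plus strand (RefSeq, GRCm38.p6), as the sterol enzyme in which the search found it.
Hmgcs1: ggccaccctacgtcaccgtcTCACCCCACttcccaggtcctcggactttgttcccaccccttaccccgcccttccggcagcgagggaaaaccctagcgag

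In fatty acid and triglyceride synthesis 13 of 22 measured genes rose and 2 fell (median 0.13, with 8 and 1 after quantile normalization). Acss2, which turns acetate into acetyl-CoA, read 7.86, 7.81 and 7.49 with 991 and 7.08, 6.80, 6.96 and 7.0 with vehicle. The controls lay below every treated array, and the rise of 1.69-fold had an adjusted p of 2.59e-07. Other rises in the list were smaller, Mid1ip1 (0.26 ± 0.04), Scd1 (0.21 ± 0.04), Elovl6 (0.21 ± 0.03) and Fasn (0.17 ± 0.04), and the falls were Mlxipl (-0.31 ± 0.11) and Thrsp (-0.28 ± 0.09), which were not called with array width as a covariate. Lpin1, a phosphatidate phosphatase that also restrains SREBP, read 7.53, 7.41 and 7.30 against 6.79, 6.59, 6.85 and 6.71 (1.60-fold, adjusted p = 2.57e-07) with no overlap. Rdh11, a retinal reductase known as a sterol-responsive gene, read 9.46, 9.45 and 9.15 against 8.54, 8.76, 8.51 and 8.67 (1.67-fold, adjusted p = 6.63e-08). Its replicate 4 was the lowest treated array and still above all controls. Fatty acid oxidation and PPAR genes rose in 6 of 19 and fell in none (4 rose with the width covariate and 2 with replicate 4 alone), against 14.0% of all genes and 25.9% of those at or above the median level. They were led by the fatty acid transporter Slc27a1 (0.58 ± 0.09), the nuclear receptor Pparg (0.46 ± 0.08) and the mitochondrial carnitine enzyme Cpt2 (0.36 ± 0.05).

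Crebrf, a brake on CREB3 proteins and on the glucocorticoid receptor, had the largest change. It read 8.12, 8.11 and 7.95 with 991 and 6.80, 7.04, 7.07 and 6.99 with vehicle. The lowest treated array stood well above the highest control, and the rise was 2.13-fold (1.09 ± 0.07, adjusted p = 1.35e-12, 0.99 with the width covariate and 0.98 with replicate 4 alone). Its relative Crebl2 rose by 0.55 ± 0.12. Of the 11 measured genes of this group 4 rose and 2 fell, where 14.0% of all genes rose and 5.65% fell. The falls were those of Creb3 (-0.10 ± 0.04) and Creb3l1 (-0.20 ± 0.05), and Nr3c1, the glucocorticoid receptor gene, rose by 0.18 ± 0.04.

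Ddit3, which encodes the stress factor CHOP, read 9.43, 9.43 and 9.28 with 991 and 8.54, 8.53, 8.61 and 8.69 with vehicle. No array crossed between the groups, and the rise was 1.72-fold (adjusted p = 2.1e-11). Of 26 measured genes of the integrated stress response 8 rose and 1 fell, with a median of 0.05. Among all genes 14.0% rose and 5.65% fell. Of those at or above the median level 25.9% rose and 3.86% fell, with a median of 0.07. After Ddit3 came Vldlr (0.50 ± 0.07), Atf3 (0.42 ± 0.09), Chac1 (0.37 ± 0.08), Trib3 (0.32 ± 0.10) and Ppp1r15a (0.28 ± 0.05), which reverses the translational block of this response. Atf4, which encodes its central factor, rose by 0.15 ± 0.03. Chaperones and the unfolded protein response had 7 of 20 higher and none lower, of which 1, the stress sensor gene Ern1 (0.33 ± 0.05), was called after quantile normalization. Of 12 heat shock genes none rose and 2 fell, Hspa8 (-0.13 ± 0.04) and Hspa1b (-0.26 ± 0.06), the latter uncertain because Hspa1a is a near-identical copy. The element TTGCATCA (other strand TGATGCAA), bound by ATF and C/EBP factors, was in none of the 34 promoters.

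Single growth-arrest and FOXO-linked genes rose. Gadd45a, induced by DNA damage and by starvation, read 7.42, 7.26 and 7.08 against 6.58, 6.70, 6.54 and 6.68 (1.55-fold, adjusted p = 1.23e-05) with no overlap. Pmaip1, which encodes the death protein NOXA, read 5.76, 5.65 and 5.59 against 5.01, 5.16, 4.99 and 4.86 (1.58-fold). Of 18 measured p53 targets 4 rose and 1 fell, a share higher that lies between the 14.0% of all genes and the 25.9% of those at or above the median level. Beside Gadd45a and Pmaip1, Tnfrsf10b (0.47 ± 0.08) and Gadd45b (0.19 ± 0.04) rose and Plk2 fell by 0.19 ± 0.03. Of 20 FOXO targets 8 rose and 1 fell (median 0.10), among them the ubiquitin ligase Fbxo32 (0.46 ± 0.08), Ccng2 (0.43 ± 0.08), the insulin receptor Insr (0.40 ± 0.07), its substrate Irs2 (0.37 ± 0.08) and Foxo3 itself (0.32 ± 0.05).

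Txnip, which binds thioredoxin and lowers glucose uptake, read 7.91, 7.74 and 7.80 with 991 and 7.01, 7.19, 7.05 and 7.09 with vehicle. The treated arrays were all higher, by 1.66-fold (adjusted p = 7.81e-08). Hbp1, a repressor of the cell cycle, read 9.89, 9.82 and 9.68 against 9.02, 9.09, 9.15 and 9.05, also apart (1.64-fold, adjusted p = 1.3e-10). The forkhead element GTAAACA (other strand TGTTTAC) was in 3 of the 34 promoters (8.82%, against 3.4% of genes tested), those of Hbp1, Txnip and Pip4p1. Across all genes with a promoter in the table, 12.4% of 491 with this element were called higher, against 14.6% of 13961 without. At or above the median level the shares were 27.0% and 26.0%. The stretches of Txnip (chr3:96557816-96557915, plus strand) and Hbp1 (chr12:31950315-31950414, minus strand, both RefSeq GRCm38.p6) are shown because both genes are known FOXO targets, with the element in capitals 121 and 149 bases before the start.
Txnip: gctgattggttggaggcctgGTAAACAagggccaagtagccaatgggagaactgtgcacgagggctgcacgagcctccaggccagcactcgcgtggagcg
Hbp1: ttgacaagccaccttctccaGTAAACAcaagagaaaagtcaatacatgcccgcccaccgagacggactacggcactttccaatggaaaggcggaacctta

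Transcription factor genes of the clock and of the Krüppel-like family moved both ways. Bhlhe40, a clock repressor, read 8.81, 8.76 and 8.70 with 991 and 8.02, 8.02, 8.03 and 7.86 with vehicle, where vehicle replicate 4 stood below the others. All treated arrays were higher (1.71-fold, adjusted p = 1.72e-11). Dbp, an output gene of the clock, read 7.63, 7.59 and 7.66 against 6.89, 7.02, 7.0 and 7.09 (1.54-fold, adjusted p = 5.11e-06), with replicate 4 the highest. Of 20 clock genes 6 rose and 2 fell (median 0.08), against 14.0% and 5.65% of all genes and 25.9% and 3.86% of those at or above the median level. Cry1 (0.38 ± 0.07) and Nr1d2 (0.35 ± 0.04) rose, while the activator Arntl (-0.18 ± 0.06) and Bhlhe41 (-0.31 ± 0.10) fell. Of 15 Krüppel-like factors 5 rose and 3 fell. Klf9 (0.58 ± 0.04), Klf11 (0.44 ± 0.10) and Klf5 (0.26 ± 0.06) rose, and Klf2 and Klf4 (-0.33 ± 0.06) fell. Klf2 read 8.25, 8.11 and 8.29 with 991 and 8.68, 8.76, 8.72 and 8.75 with vehicle, so that every treated array lay below every control (1.43-fold lower, adjusted p = 1.03e-06).

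Ahrr, Tiparp and Mt1 rose at 1.5-fold and belong to no list. Ahrr, the repressor of the aryl hydrocarbon receptor, read 5.26, 5.48 and 5.30 against 4.70, 4.67, 4.68 and 4.69 (1.58-fold, adjusted p = 0.000137), and Tiparp, a target of that receptor, read 10.56, 10.58 and 10.45 against 9.97, 9.95, 9.86 and 9.95 (1.51-fold, adjusted p = 1.35e-12). Both were free of overlap. Looked up after these values were seen, the classical target Cyp1a1 rose by 0.46 ± 0.09 and Cyp1b1 by 0.22 ± 0.05, while the receptor gene Ahr fell by 0.22 ± 0.06. With the width covariate neither Cyp1b1 nor Ahr was called (adjusted p = 0.0673 and 0.0843), and with replicate 4 alone none of Cyp1a1, Cyp1b1 and Ahr was (adjusted p = 0.182, 0.0983 and 0.706). Mt1, a metallothionein, read 11.40, 11.48 and 11.30 against 10.84, 10.79, 10.80 and 10.77 (1.51-fold, adjusted p = 1.99e-12). Its neighbour in function Mt2, also looked up later, rose by 0.34 ± 0.04, and the zinc exporter Slc30a1 by 0.17 ± 0.06. Slc30a1 was not called after quantile normalization (adjusted p = 0.243).

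Interferon-induced genes rose in a few members. Ifit1, an antiviral RNA-binding protein, read 8.50, 8.30 and 8.11 with 991 and 7.47, 7.47, 7.48 and 7.43 with vehicle. The controls lay close together, and the treated arrays were spread above them (1.79-fold, adjusted p = 2.11e-07). Ifit2 read 9.45, 9.52 and 9.31 against 8.82, 8.87, 8.76 and 8.80 (1.53-fold, adjusted p = 8.05e-10). Of 18 measured genes of the response 6 rose and 1 fell (median 0.09), where 25.9% of genes at or above the median level rose and 3.86% fell. The signal transducer Stat2 (0.52 ± 0.09) and Ifit3 (0.42 ± 0.09) were among the rises, Ifit3 being uncertain because a near-identical copy exists, and Mx2 fell by 0.22 ± 0.08. Ifnb1, which encodes interferon beta and was looked up later, changed by 0.04 ± 0.11 and was not called. Chemokines, cytokines and their feedback genes split, with 5 of 25 higher and 3 lower as deposited but 3 higher and 5 lower after quantile normalization, against 14.0% and 5.65% of all genes as deposited. Cxcl10 (0.56 ± 0.06) and Ccl5 (0.34 ± 0.07) rose, whereas Cxcl1 and Cxcl5, which attract neutrophils, fell.

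Other genes that rose at 1.5-fold belong to no list above. Stx3, a fusion protein of the plasma membrane, read 11.05, 11.14 and 11.04 with 991 and 10.41, 10.42, 10.43 and 10.34 with vehicle (1.60-fold, adjusted p = 1.01e-11). Armcx1, a mitochondrial outer membrane protein that aids transport along axons, read 8.87, 8.69 and 8.42 against 7.96, 7.97, 7.88 and 8.0 (1.64-fold, adjusted p = 1.99e-08). Neither gene had overlapping arrays. Ndrg1, induced by hypoxia, rose 1.53-fold, and 5 of 16 hypoxia genes rose and none fell. Among all genes 14.0% rose, and among those at or above the median level 25.9%. Ube2t, a ubiquitin-conjugating enzyme of the Fanconi pathway, rose 1.55-fold, the ubiquitin ligase adaptor Klhl24 1.60-fold, the neuronal enolase Eno2 1.60-fold and Serac1, a phospholipid-remodelling enzyme, 1.73-fold. Runx1t1, a corepressor, rose 1.58-fold and Ccdc25 1.57-fold. The dimmer genes Zc3h6, Tceal1 and Akr1c14 rose 1.73-, 1.74- and 1.59-fold, and none of these 3 was called with replicate 4 alone. Gpr137b-ps (1.52-fold) is a pseudogene of a near-identical lysosomal gene, so its reading is uncertain.

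Falls were fewer and mostly smaller. Pde4b, a phosphodiesterase that degrades cAMP, read 6.86, 6.77 and 7.02 with 991 and 7.53, 7.86, 7.63 and 7.50 with vehicle. All treated arrays were lower, by 1.68-fold (adjusted p = 1.22e-07). Cxcl5 read 7.32, 6.83 and 6.46 against 7.87, 7.86, 7.56 and 7.70, with a wide spread in the treated arrays but no overlap (1.83-fold lower, adjusted p = 4.35e-05). Ackr3, a scavenger receptor of chemokines, read 7.29, 7.32 and 7.32 against 7.92, 7.75, 8.11 and 7.96 (1.54-fold lower), and Plau, the urokinase gene, 6.96, 7.01 and 6.83 against 7.47, 7.65, 7.70 and 7.58 (1.58-fold lower). Cyp2c55 was 1.53-fold lower and Cacng8 1.56-fold lower. For Cacng8 replicate 4 alone gave a change of -0.16 (adjusted p = 0.66). Of 19 measured genes of cAMP phosphodiesterases and cAMP responses none rose, and Sik1 (-0.18 ± 0.07) fell beside Pde4b (14.0% of all genes rose and 5.65% fell).

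In the brighter genes (median level and up) the falls after Pde4b, that of Klf2 included, were below 1.5-fold. Cxcl1 read 8.61, 8.35 and 8.68 with 991 and 9.06, 8.94, 9.02 and 9.03 with vehicle (1.38-fold lower, adjusted p = 0.000147). Il17re, a receptor subunit, read 8.02, 8.10 and 8.15 against 8.69, 8.44, 8.59 and 8.42 (1.36-fold lower). Neither overlapped. Dido1 read 9.39, 9.30 and 9.38 against 9.92, 9.76, 9.76 and 9.76, but another of its probe sets rose by 0.47, so the direction for this gene depends on the probe set. Slc1a3, a glutamate transporter, read 8.74, 8.63 and 8.67 against 9.18, 9.16, 9.03 and 9.10 (1.35-fold lower). Slc1a3 and another 4 of the 10 largest falls were not called with array width as a covariate. These were Dbh (1.36-fold), Clmn (1.34-fold), Nrxn3 (1.33-fold) and Krtap12-1 (1.32-fold), and the adjusted p in that fit was 0.118 for Slc1a3, 0.488 for Dbh, 0.444 for Clmn, 0.2 for Nrxn3 and 0.162 for Krtap12-1.

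**Figure D3:**
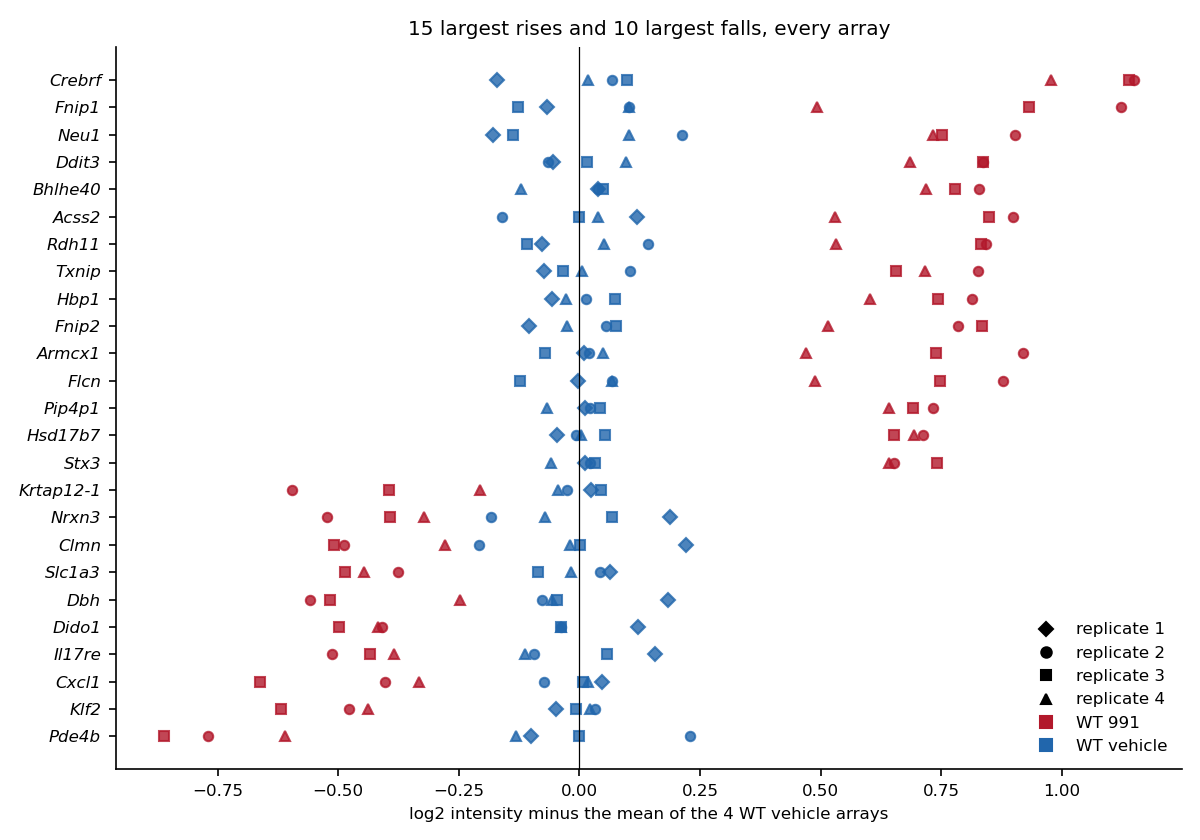
Log2 intensity of each WT array minus the mean of the 4 WT vehicle arrays, for the 15 largest rises and 10 largest falls among genes at or above the median level. Red points are 991 arrays and blue points vehicle arrays, with the shape giving the replicate number. The 25 genes were picked among those whose colours do not overlap, and replicate 4 (triangle) is often the 991 array nearest to 0.

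Several processes tied to AMPK in textbooks showed mostly small changes in mRNA at 4 h. Their counts are read against 14.0% of all genes called higher and 5.65% lower. At or above the median level these shares were 25.9% and 3.86%, and counts near them say little about a process. Neither catalytic subunit gene was called: Prkaa1 read 8.53, 8.35 and 8.02 with 991 and 8.45, 8.45, 8.17 and 8.34 with vehicle, which overlap (-0.05 ± 0.11, adjusted p = 0.76), and Prkaa2 read 6.18, 6.03 and 6.01 and 6.33, 6.30, 6.15 and 6.06 (adjusted p = 0.276). With array width as a covariate Prkaa1 was called lower (-0.36, adjusted p = 0.0306). Of 13 AMPK subunits and upstream kinases the β2 subunit gene Prkab2 (0.24 ± 0.05) and the pseudokinases Stradb (0.30 ± 0.08) and Strada (0.19 ± 0.07) rose. Regulators of mitochondrial biogenesis rose in 3 of 12, led by Ppargc1b (0.35 ± 0.07), respiratory chain subunits in 5 of 19 and genes of glucose uptake and glycolysis in 4 of 19, and none of these lists had a member that fell. Of 21 G1 and S phase genes 1 rose and 1 fell, of 27 collagen and matrix genes 1 rose and 2 fell, and of 22 ribosome biogenesis genes 2 rose and 3 fell. After quantile normalization 1, 3 and 1 members of the mitochondrial, respiratory chain and glycolysis lists were called higher, where 7.01% of all genes were.

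Signalling and metabolic lists outside these groups had scattered members that rose or fell, and in several the balance turned with the normalization. Over all genes 14.0% rose and 5.65% fell as deposited, and 7.01% and 5.75% after quantile normalization. Of 20 AP-1 and immediate early genes 5 rose and 1 fell, with Maff (0.42 ± 0.05) next to Atf3 at the top and Egr3 (-0.30 ± 0.09) the fall, and after quantile normalization 3 rose and 3 fell. Of 16 MAP kinase phosphatases and feedback genes 3 rose, led by Dusp16 (0.35 ± 0.04), and 2 fell, but after quantile normalization 1 rose and 3 fell. Of 16 YAP and SRF targets 5 rose and 1 fell, the rises including the tissue factor gene F3 (0.43 ± 0.08) and the matrix proteins Ccn1 (0.31 ± 0.04) and Ccn2 (0.24 ± 0.04), and after quantile normalization 4 rose and 3 fell. Of 18 NRF2 and antioxidant targets 4 rose and none fell, with heme oxygenase Hmox1 (0.37 ± 0.05) the largest. Among 12 genes of lipid droplets the lipase Pnpla2 (0.22 ± 0.06), its activator Abhd5 (0.29 ± 0.05) and the coat protein Plin3 (0.27 ± 0.05) rose.

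Purine synthesis, which makes the nucleotides that AMPK senses, had 2 rises and 4 falls among 20 genes. Gart (0.15 ± 0.05) and Adsl (0.14 ± 0.04) rose, and Pfas (-0.16 ± 0.05), Adss (-0.13 ± 0.03) and the AMP deaminases Ampd2 (-0.16 ± 0.04) and Ampd1 (-0.29 ± 0.10) fell. Neither rise was called after quantile normalization, nor was the fall of Ampd1. Of 13 genes of transcription elongation 1 fell, the P-TEFb inhibitor Hexim1 (-0.20 ± 0.05), and none rose. Of 19 TGF-beta, BMP and Notch targets 2 rose and 1 fell as deposited, but none rose and 3 fell both after quantile normalization and with the width covariate. Of 15 genes of insulin and IGF signalling 2 rose, and of 12 pyruvate dehydrogenase kinases and MondoA targets 4 rose, Txnip among them. Of all genes 14.0% were called higher and 5.65% lower as deposited. The shares were 7.01% and 5.75% after quantile normalization, and 4.11% and 1.95% with the width covariate. Counts near these shares say little about a list.

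Mitotic genes had many small changes. Of 19 genes of G2 and mitosis 12 rose and none fell (median 0.10), led by Tpx2 (0.23 ± 0.05), Kif23 (0.19 ± 0.05) and Cenpf (0.18 ± 0.03). Of all genes 14.0% rose, and of those at or above the median level 25.9% rose, with a median change of 0.07. After quantile normalization 6 of the 19 were called higher (7.01% of all genes). With the width covariate 2 were called higher and 1 lower (4.11% and 1.95% of all genes). The same 19 genes had a median of 0.10 in dKO cells, where 5 were called higher (1.88% of all genes), and none of them was called between genotypes.

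**Figure D4:**
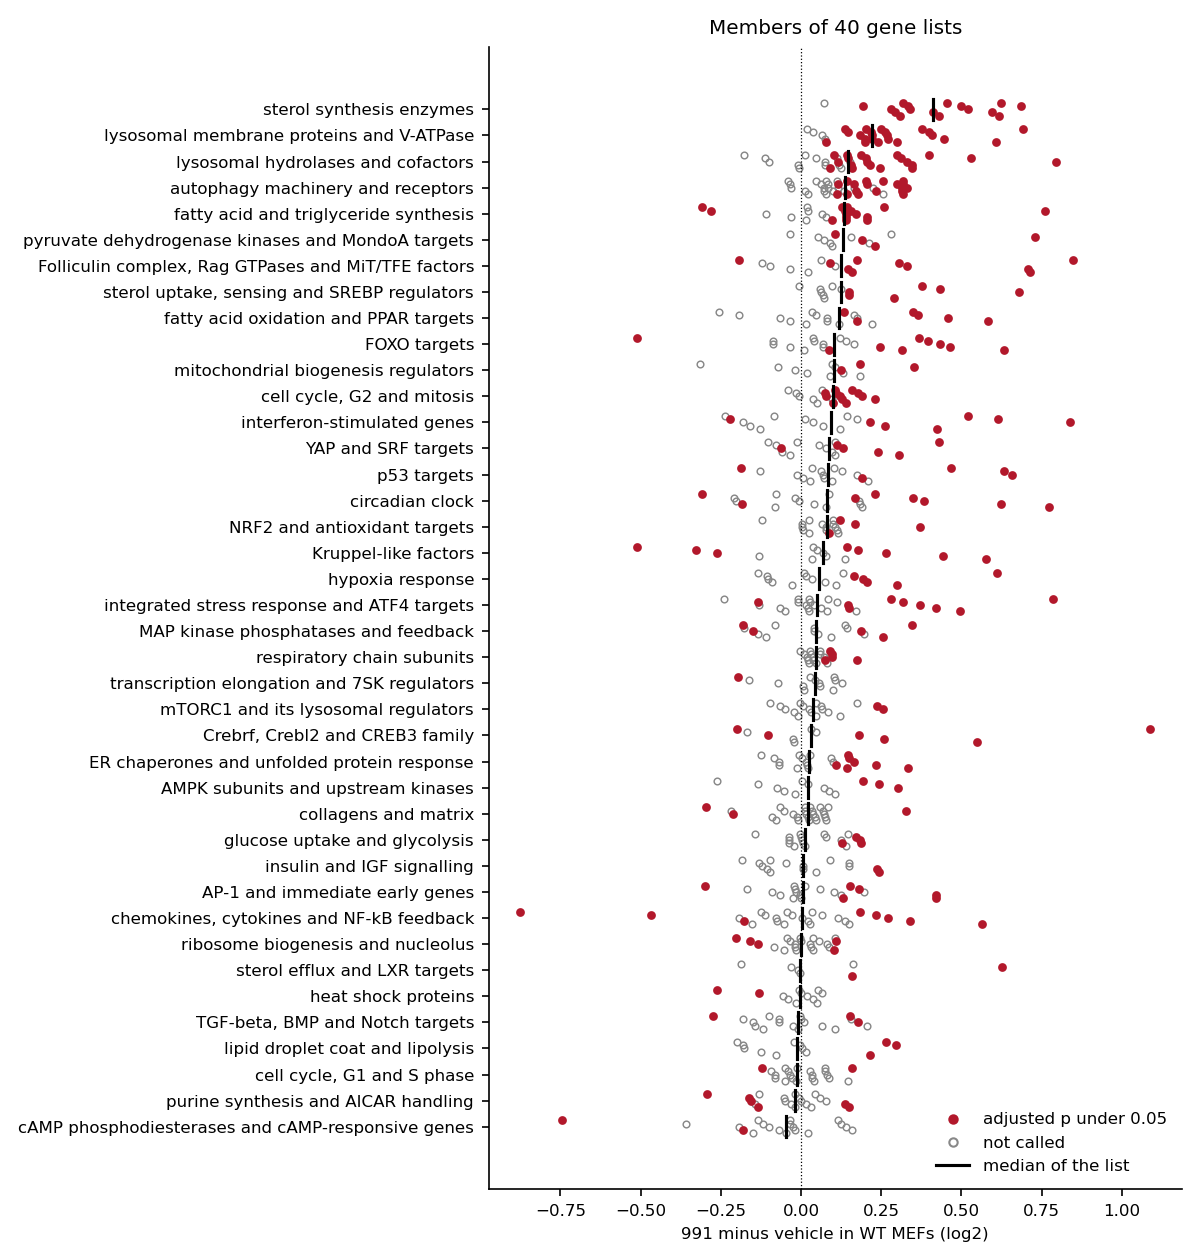
Change with 991 in WT MEFs (log2, 991 minus vehicle) of every measured member of 40 gene lists, ordered by the median of the list. Filled red points have an adjusted p under 0.05, open grey points do not, and bars are medians; sterol synthesis (median 0.41) and lysosomal membrane and pump genes (0.22) lie at the top.

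The effect of 991 was then set against that in dKO cells, where AMPKα1 and α2 are missing. Prkaa1 on its single probe set read 8.17 to 8.45 in WT and 8.17 to 8.35 in dKO vehicle arrays, and Prkaa2 6.06 to 6.33 and 5.76 to 6.00. The deleted stretches are not given in the sources used here, and a probe set that lies elsewhere checks nothing. None of the 41 rises was called in dKO cells (1.88% of all genes were called higher there and 3.46% either way), where their changes were -0.16 to 0.23 with a median of 0.06. The difference between genotypes itself was called for 40 of the 41, against 4.37% of all genes in that direction and 5.28% in either. The exception was Zc3h6 (0.56, adjusted p = 0.0537). These calls are as deposited. The mean poly-A level was 7.82 with 991 and 7.56 with vehicle in WT, but 7.30 and 7.49 in dKO arrays. Mean widths were 3.81 and 3.64 in WT, and 3.69 and 3.70 in dKO. Over all genes the number called between genotypes, 961 as deposited, was 382 with the width covariate and 253 with the poly-A covariate. The part of the arrays in the 40 calls was not tested. Since the genes were picked by their WT change, this count is a description.

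Among the rises the difference between genotypes was largest for Crebrf (1.06, adjusted p = 1.14e-08), Bhlhe40 (0.83, adjusted p = 1.94e-08) and Fnip1 (0.83, adjusted p = 0.00285). Flcn changed by -0.08 and Fnip2 by 0.00 in dKO cells. The largest dKO changes among the rises were those of Zc3h6 (0.23), Gpr137b-ps (0.20) and Ndrg1 (0.17), none of them called. By list, the WT effect as deposited was called higher than the dKO effect in 12 of 17 sterol enzymes and 13 of 26 lysosomal membrane and pump genes. It was also called higher in 10 of 33 hydrolases and 6 of 38 autophagy genes, against 4.37% of all genes. At or above the median level, 7.77% of genes whose promoter held the sterol element and 7.76% of those without it were called higher. Sterol enzymes still had a median of 0.09 in dKO cells, with 2 of 17 called higher there (1.88% of all genes). The falls divided: Pde4b (-0.70, adjusted p = 0.000181) and Cxcl5 (-0.93, adjusted p = 0.00245) fell more in WT (0.912% of all genes were called lower in that difference). Cxcl5 averaged 4.84 over the 23 MEF arrays, against 7.75 in WT vehicle arrays and 6.87 in WT arrays with 991. For Cxcl5 a low level in dKO cells, where a fall could not show, cannot be told apart from a need for AMPK. Ackr3 fell in dKO cells too, by 0.58 (adjusted p = 0.000492), as did Plau by 0.38 (adjusted p = 0.0143), where 1.58% of all genes were called lower. For Ackr3 the difference between genotypes was -0.04 ± 0.14.

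AICAR in the same WT cells shares the vehicle arrays with 991, so the effects are given side by side and only the direct difference is tested, at doses of 10 µM and 2 mM that cannot be matched. Of the 41 genes that rose with 991, 27 were higher with 991 than with AICAR, 3 were lower and 11 were not called (16.6% and 11.3% of all genes were higher and lower, 28.0% together). Of the same 41, 24 were called higher and 7 lower with AICAR against vehicle (19.6% and 15.5% of all genes, 35.0% together). The 41 were picked on the same 991 and vehicle arrays, which favours higher values in both comparisons, so these counts are a description. Of the folliculin genes, Fnip2 stood at 0.71 ± 0.06 with 991 and 0.72 ± 0.06 with AICAR (difference -0.01 ± 0.06, adjusted p = 0.961), while Flcn was higher with 991 by 0.31 ± 0.07 (adjusted p = 0.000876). Neu1 rose with 991 and was -0.17 with AICAR, a difference of 0.96 ± 0.08 (adjusted p = 5.19e-11).

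Stress genes were among those that went the other way with AICAR. Ddit3 changed by -0.51 with AICAR (difference 1.29 ± 0.06, adjusted p = 8.71e-18), Gadd45a by -0.55, Abca1 by -0.86, Eno2 by -0.52, Serac1 by -0.39, Ndrg1 by -0.24 and Zc3h6 by -0.81, and these 7 are the rises that AICAR lowered. The genes that AICAR raised further were Ccdc25 (1.93 against 0.65 with 991), Txnip (1.86 against 0.73) and Hsd17b7 (1.10 against 0.69). Sterol synthesis as a list had medians of 0.41 with 991 and 0.38 with AICAR, with 8 of 17 enzymes higher and 2 lower with 991. The integrated stress response list rose in 8 of 26 with 991, while with AICAR 2 rose and 15 fell, and 14 of the 26 were higher with 991 than with AICAR. Cxcl5 fell further with AICAR (-2.52, difference 1.64 ± 0.14, adjusted p = 3.85e-11).

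**Figure D5:**
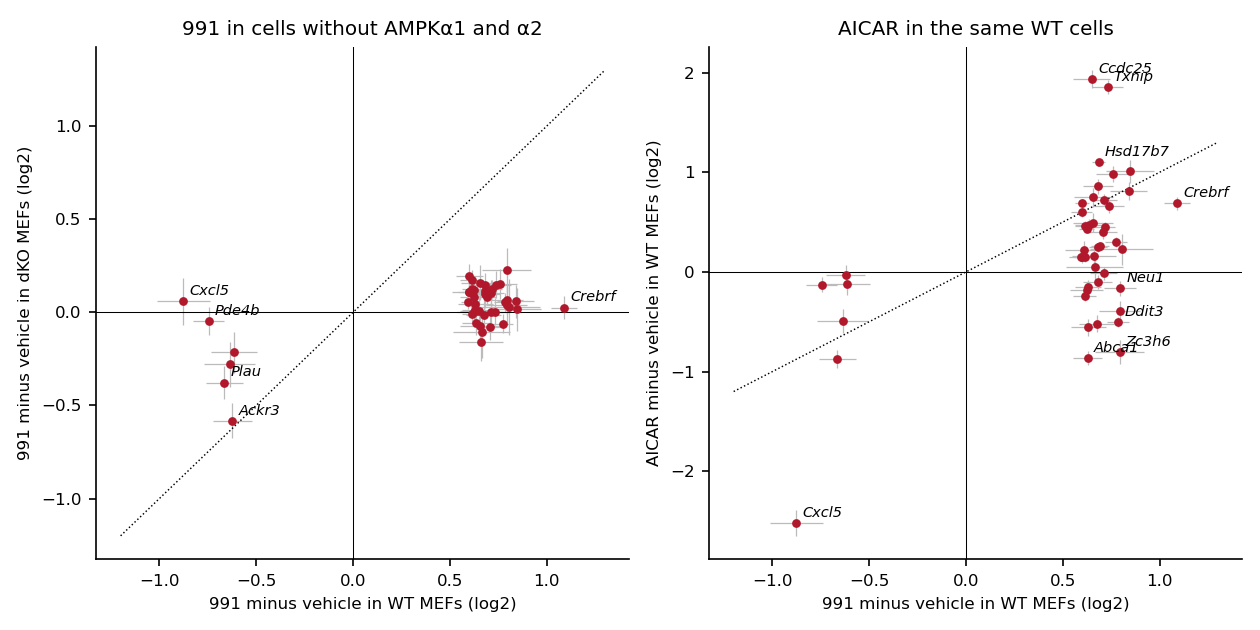
The 47 genes called at 1.5-fold with 991 in WT MEFs, their WT change (x axis, log2) against the change with 991 in dKO MEFs (left) and with AICAR in WT MEFs (right). Bars are standard errors and the dotted line marks equal changes; in dKO cells the rises lie between -0.16 and 0.23, and with AICAR they spread from -0.86 to 1.93.

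In WT hepatocytes, another cell type at a lower dose and in 2 preparations, the values are a description without a test. Of the 41 rises 36 were above 0 in both preparations (44.4% of all genes were), 4 in 1 and 1, Akr1c14 (-0.44 and -0.46), in none. Flcn changed by 0.95 and 0.92 in preparations 1 and 2, Fnip2 by 0.80 and 0.76, Neu1 by 0.69 and 0.64, Ctns by 0.83 and 0.78, and Stx3 by 0.84 and 1.04. The sterol genes had smaller changes there, Hmgcs1 at 0.15 and 0.09 and Lss at 0.06 and 0.20, and Acss2 stood at 0.02 and -0.33. Ddit3 was 0.68 and 1.87. Of the 6 falls 1, Cyp2c55, was below 0 in both preparations (-0.02 and -0.05), as were 4644 of all 18193 genes. Ackr3 (0.49 and 1.20), Plau (0.16 and 0.33) and Cacng8 (0.17 and 0.15) were above 0 in both. Pde4b (-0.04 and 0.02) and Cxcl5 (0.02 and -0.01) were below 0 in 1.

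Other probe sets of the same genes, tested over all 45037 probe sets, bear on each reading. Of the 47 genes 18 have 1 probe set and 29 have 61 further ones. Of these 61, 57 went in the same direction, 38 were called in it and none was called in the opposite one. Of all 45037 probe sets 5871 were called in either direction. The further probe sets read the same arrays that picked the genes, so these counts are a description. The next brightest probe set of Flcn rose by 0.64 ± 0.06, those of Fnip1 by 0.81 ± 0.07 and 0.70 ± 0.20, and those of Crebrf by 0.57 ± 0.08 and 0.62 ± 0.10. Klhl24 rose by 1.41 ± 0.09 on another probe set, more than the one that stands for it. For 7 genes no further probe set was called, among them Neu1 (0.03 ± 0.12 and 0.29 ± 0.12) and Abca1 (0.02 ± 0.12 and 0.04 ± 0.09). Among the smaller falls Dido1 had 5 probe sets, of which 1 was called lower, 1 higher and 3 not called.

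Defining markers of the labelled cell type were present in part. Of 17 fibroblast and mesenchymal markers 12 were at or above the median level of all genes in WT vehicle arrays, such as Vim (14.08 ± 0.02), Col1a2 (13.90 ± 0.05) and Pdgfrb (10.38 ± 0.10), while Pdgfra (6.06 ± 0.17), Thy1 (6.29 ± 0.15), Dcn (5.54 ± 0.11), Lum (4.49 ± 0.11) and Fap (4.01 ± 0.21; SD, n = 4) were below it. With 991 none of the 17 rose and 2 fell, Col1a1 (-0.21 ± 0.04) and Col3a1 (-0.30 ± 0.08; SE). Neural (3 of 5) and hepatocyte (1 of 4) markers were partly at or above it. Endothelial (6), skeletal muscle (5), adipocyte (4) and erythroid (2) markers were all below the median level, as was the common leukocyte gene Ptprc (3.30 ± 0.17). Of 7 macrophage markers 2 were at or above it, Csf1r and Cd14, and of 6 epithelial markers Krt19 and Epcam. Summed over the list, macrophage markers were 36.92 to 37.98 with 991 and 37.74 to 38.50 with vehicle, and epithelial markers 37.40 to 37.52 and 37.66 to 38.49. No marker of another cell type rose with 991, and 3 fell: Csf1r, Epcam and Hba-a1. Their part in the results was not tested.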

How the data were processed

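Mouse whole-genome Affymetrix arrays were read as log2 values per probe set, deposited by the authors. RMA and Partek appear in the submitters' processing notes, without versions or order, and RMA gives normalized log2 intensities. Of 45101 probe sets 64 controls were left out. The probe set with the highest mean over 23 MEF arrays stood for each of 18193 genes, named from the platform annotation. A linear model with 6 group means (17 residual degrees of freedom) was fitted with limma 3.58.1 in R 4.3.3, with moderated variances that follow intensity, and Benjamini-Hochberg adjustment. Called means an adjusted p under 0.05. The limma step was tested on simulated data. Tables and figures used Python 3.11.15, pandas 2.3.3 and matplotlib 3.10.9. The number of arrays limits the precision.

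Named genes were Flcn, Prkaa1 and Prkaa2, every gene called at 1.5-fold as deposited and after quantile normalization, the 15 largest rises and 10 largest falls among genes at or above the median level without overlapping arrays, and up to 6 called members of each list. Predicted genes were left out. Members and lists were chosen with earlier results of these data known. Promoter sequences came from RefSeq (GRCm38.p6) and were matched by symbol or gene ID. Alternatives were quantile normalization within MEFs, median centring, a filter on dim genes, the mean of probe sets, no trend, a fit on the 7 arrays, a replicate block, array width as a covariate and leaving out each array. A poly-A covariate and replicate 4 as the only 991 array were added after seeing the data.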

Additional observations from a re-analysis of the deposited data

Results flagged for a closer look

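In 3 of 61 sets of 4 WT vehicle arrays tested for a lone distant value, 1 array stood apart, where chance gives about 1 in 20. Bhlhe40 read 8.02, 8.02, 8.03 and 7.86, with the gap of replicate 4 being 0.946 of the range. Dido1 read 9.92, 9.76, 9.76 and 9.76 (0.968) and Dbh 8.11, 7.85, 7.88 and 7.87 (0.906), both with replicate 1 apart.

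As deposited, the effect of 991 in WT minus that in dKO cells (log2) passed the test of the difference for 47 of 58 named genes (5.28% of all genes). In the folliculin and lysosomal genes it was 0.79 for Flcn, 0.83 for Fnip1, 0.71 for Fnip2, 0.73 for Neu1, 0.61 for Pip4p1, 0.50 for Ctns, 0.69 for Dpp7 and 0.40 for Gpr137b-ps. Sterol and lipid genes gave 0.59 for Hsd17b7, 0.50 for Hmgcs1, 0.49 for Lss, 0.49 for Mvd, 0.61 for Acss2, 0.59 for Rdh11, 0.58 for Lpin1 and 0.55 for Abca1. Among regulators of stress, growth and the clock it was 1.06 for Crebrf, 0.73 for Ddit3, 0.59 for Gadd45a, 0.50 for Pmaip1, 0.83 for Bhlhe40, 0.62 for Dbp, 0.73 for Txnip, 0.59 for Hbp1 and 0.73 for Runx1t1. Interferon, aryl hydrocarbon receptor and metallothionein genes gave 0.78 for Ifit1, 0.63 for Ifit2, 0.82 for Ahrr, 0.49 for Tiparp and 0.54 for Mt1. For the remaining rises it was 0.60 for Armcx1, 0.56 for Stx3, 0.78 for Tceal1, 0.75 for Serac1, 0.54 for Klhl24, 0.69 for Eno2, 0.77 for Akr1c14, 0.64 for Ccdc25, 0.62 for Ube2t and 0.44 for Ndrg1. Among the falls it was -0.70 for Pde4b, -0.93 for Cxcl5, -0.67 for Klf2, -0.35 for Il17re, -0.41 for Dido1, -0.52 for Nrxn3 and -0.38 for Krtap12-1. The limits given above for low levels in dKO cells and for the arrays apply here too.

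Of 10092 probe sets without a single gene symbol, which enter no comparison of genes, 8 were called at 1.5-fold with 991, 4 higher and 4 lower.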

How the results depend on the processing

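The number of genes called, 3582 as deposited, was 2322 after quantile normalization (1836 shared with the calls as deposited, in the same direction), 2386 with only the 7 arrays, 1101 with the width covariate (857 shared), 1535 with the poly-A covariate (1385 shared) and 446 with replicate 4 as the only 991 array (413 shared). Leaving out 1 array gave 1889 to 4802, the lowest values being 1889 without 991 replicate 2, 1984 without 991 replicate 3 and 2103 without vehicle replicate 1. Higher genes were 71.3% of the calls as deposited, 55.0% after quantile normalization and 84.6% after median centring (4316 calls), which moved the median change of all genes to 0.0366. The number called at 1.5-fold, 47 as deposited, was 29 with the filter on dim genes, 30 with the mean of probe sets, 23 with the width covariate, 28 with the poly-A covariate, 28 with replicate 4 alone and 40 to 75 with 1 array left out, 75 being without 991 replicate 4. The number whose effect differed between WT and dKO cells, 961 as deposited, was 382 with the width covariate, 253 with the poly-A covariate, 134 with replicate 4 alone and 501 to 1712 with 1 array left out (501 without 991 replicate 2, 549 without 991 replicate 3, 611 without vehicle replicate 1 and 1712 without vehicle replicate 2). The number that differed between 991 and AICAR, 5086 as deposited, was 3195 with replicate 4 alone and 4280 to 4997 with 1 array left out. The filter tests fewer genes and the smaller fits use fewer arrays, and otherwise the cause was not tested.

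With the technical replicate number as a replicate block, 3200 genes were called, 47 at 1.5-fold, 902 between genotypes and 5112 between 991 and AICAR. Same-numbered 991 and vehicle arrays correlated at -0.08 to 0.264 (3 pairs) and others at -0.27 to 0.246 (9 pairs). Over all MEF groups the medians were 0.016 for same-numbered arrays (55 pairs) and -0.02 for others (165 pairs). With 3 pairs, whether the numbers pair the 991 and vehicle arrays cannot be told. The block changed none of the calls of the 58 named genes. No named gene reversed under any of these settings. Calls were lost for Dido1 and Nrxn3 with the mean of probe sets, for Dbh and Clmn with the poly-A covariate, for 5 genes with the width covariate and for 14 with replicate 4 alone. Probe sets near background limit the dimmer genes.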
